A study of Rattus norvegicus with 21 samples.

Results

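Livers of early weaned Wistar rats were set against livers of control Wistar rats over 2 ages at once, to ask which transcripts differed in the same direction at d23 and at d63. The comparison used 12 of the 21 liver libraries of the series, chosen by their labels: early weaned rats at d23 (EW, 3 libraries), controls at d23 (CON, 3 libraries), early weaned rats at d63 (EH, 3 libraries) and controls at d63 (CH, 3 libraries). The other 9 libraries came from Sprague Dawley rats at d211, in 3 groups of 3: early weaned, early weaned with a leucine supplement, and control. The early weaned and control libraries at d211 are compared here as a further set, while the leucine libraries entered that fit only for the estimate of spread and scaling. All groups were whole liver with no genetic change named. The sources used here give neither the age at weaning, the diet nor the sex of the animals. Whether each replicate was a different animal is not stated either, and p-values therefore describe only how much these libraries vary.

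At weaning, rat pups go from milk, rich in fat, to chow, rich in carbohydrate, and the liver changes its fuel use with the diet. Fatty acids and fasting activate the nuclear receptor PPARα, which turns on genes for fatty acid oxidation, ketone production and lipid storage and release. The liver also makes most plasma proteins, among them the acute phase proteins, and its non-parenchymal cells (stellate cells, endothelium, Kupffer cells and lymphocytes) supply matrix and immune transcripts to a whole-tissue library. In such a bulk library, fewer cells of a type and less RNA per cell cannot be told apart.

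Total counts per library ran from 53165564 to 71638683, and 10452 to 10942 genes reached 1 FPKM (fragments scaled to transcript length and library size). The hepatocyte transcript Alb stood at 33683, 42384 and 36825 FPKM in early weaned livers at d23, against 51112, 52607 and 85367 FPKM in controls. Defining markers of adipocytes (Adipoq, Lep) and of skeletal muscle (Ckm, Myh4) were listed at 0 in all 12 libraries. Other members of these lists were seen, with Cfd at up to 16.9, Fabp4 at up to 12.3 and Mylpf at up to 1.24 FPKM. The pancreatic acinar markers Cela1, Ctrb1 and Prss1 reached 32.1, 13.9 and 6.5 FPKM. The part of other tissue in these libraries was not tested. Control d23 replicate 3 and control d63 replicate 2 stood apart from the other libraries of their groups. On the first principal component of 11711 genes, which held 64.2% of the variance and separated the ages, control d23 replicate 3 was at 1.16 while the other 5 libraries of that age lay between -60.8 and -47.3. Control d23 replicate 3 had 70.5 FPKM of the fetal gene Afp, against 0.59 to 9.49 FPKM in the other 5 libraries of that age, and 304.7 FPKM of the amino acid enzyme Sds, against 1842 to 2573 FPKM. Control d63 replicate 2 had 0.34 FPKM of the male-biased Cyp2c11 and 2368 FPKM of the female-biased Cyp2c12. The Y-linked Eif2s3y was listed at 0 in that library and in early weaned d23 replicate 2 and at 0.01 FPKM in early weaned d23 replicate 3, the 3 libraries said below to lack Y-linked transcripts, while it stood at 9.08 to 11.4 FPKM in the other 9 libraries. Both of the libraries that stand apart are controls, so the main results below are given with all 12 libraries and without them, and the part of sex and of these libraries in the results was not tested.

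**Figure D1:**
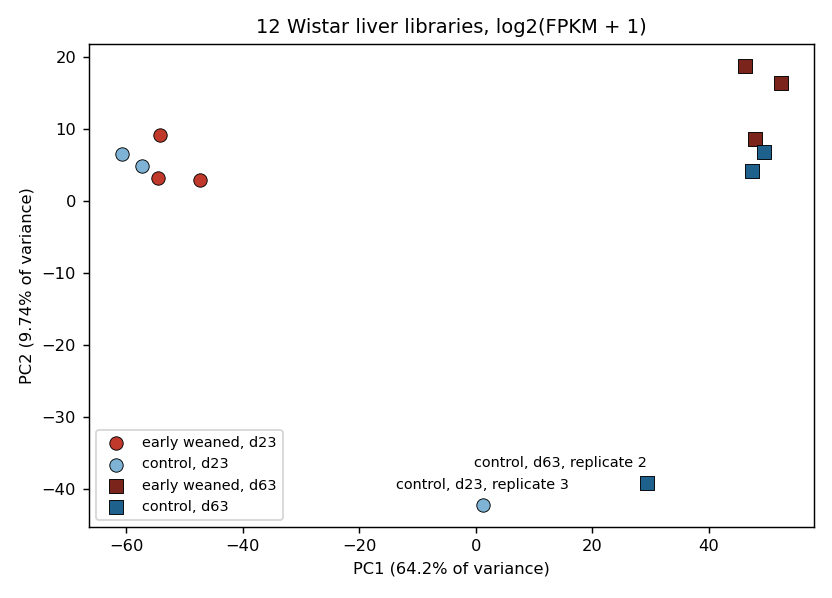
Principal components 1 and 2 of log2(FPKM + 1) over 11711 genes, 1 point per library, with circles for d23 and squares for d63, red for early weaned and blue for control. The first component holds 64.2% and the second 9.74% of the variance. Control d23 replicate 3 and control d63 replicate 2 lie at the bottom, away from the other 10 libraries, which separate by age.

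Over both ages, no single gene passed the test after correction. By unadjusted p, early weaned livers had less of some lipid-handling and matrix transcripts and more of a few acute phase and metabolic transcripts than controls. With day as a factor, edgeR's quasi-likelihood test with Benjamini-Hochberg adjustment called 0 of 15416 genes (0%) at an adjusted p under 0.05. The smallest adjusted p was 0.139. At an unadjusted p under 0.05 there were 1104 genes (7.16%), 381 higher (2.47%) and 723 lower (4.69%). Of these 1104 genes, 1092 had the same sign at both ages. DESeq2 on the same counts called 60 genes, 28 higher and 32 lower, all 60 with the same sign at both ages, and limma on log2(FPKM + 1) called 0. Genes picked by their effect over both ages will mostly share a sign between the ages. These sign counts are therefore a description and not a test, beside 53.8% with the same sign among all tested genes. Leaving out control d63 replicate 1 gave 1 call, RGD1359290, and no other single library left out gave any.

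The 2 ages shared little of the effect across the whole transcriptome. The log2 fold change had the same sign at both ages in 8301 of the 15416 tested genes (53.8%), with 3695 genes higher at both ages (24%) and 4606 lower at both (29.9%). Across genes, which are not independent replicates, the d23 and d63 fold changes had a Pearson r of 0.09 and a Spearman rho of 0.11. The 2 contrasts share no library. Without control d23 replicate 3 the Pearson r was -0.002, and 50.5% of tested genes had the same sign. With the presence of Y-linked transcripts as a term in the fit, the Pearson r was -0.10, and 49.8% had the same sign.

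A smaller group of genes differed the same way at each age by an unadjusted p. Taken alone, d23 had 956 genes at an unadjusted p under 0.05 (6.2%) and d63 had 933 (6.05%). At both ages together there were 63 genes of the same direction (0.409%), 22 higher and 41 lower, and 16 of opposite direction (0.104%). These 63 genes were picked by those p-values, so their fold changes are a description and not a further test. Of the 63, 20 of the higher and 35 of the lower genes reached a mean of 1 FPKM in a group, and 40 also had CPM values that did not overlap between early weaned and control libraries at either age. Over all tested genes, CPM values did not overlap at either age in 69 genes higher at both (0.448%) and 114 lower at both (0.739%), and in 64 genes with opposite directions. A change of at least 2-fold was reached by 5 of the higher and 10 of the lower genes. The number of genes of the same direction was 113 without control d23 replicate 3 and 40 without early weaned d63 replicate 3. The number of opposite direction was 57 without control d23 replicate 3, 29 without control d23 replicate 1, 26 without control d23 replicate 2 and 25 without early weaned d23 replicate 2. With the presence of Y-linked transcripts as a term in the fit, 37 genes were of the same direction and 43 of opposite direction.

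The direction of the 63 genes mostly held when libraries were left out, while their p-values did not. The 63 were picked in these same libraries, and each fit below reuses most of those libraries. A kept direction is therefore largely set by the choice of genes and is no further test. With control d23 replicate 3 left out, 62 of the 63 kept the same direction at both ages and 39 still had an unadjusted p under 0.05 at both. With both libraries that stand apart left out, 62 kept the direction and 27 had such a p at both ages. With the 3 libraries that lack Y-linked transcripts left out, all 63 kept the direction and 16 had such a p at both ages. Of the 63 genes, 7 belonged to any of the gene lists described below, namely Angptl4, Acot2, Orm1, Hp, Hsd3b7, Col1a1 and Col4a1.

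**Figure D2:**
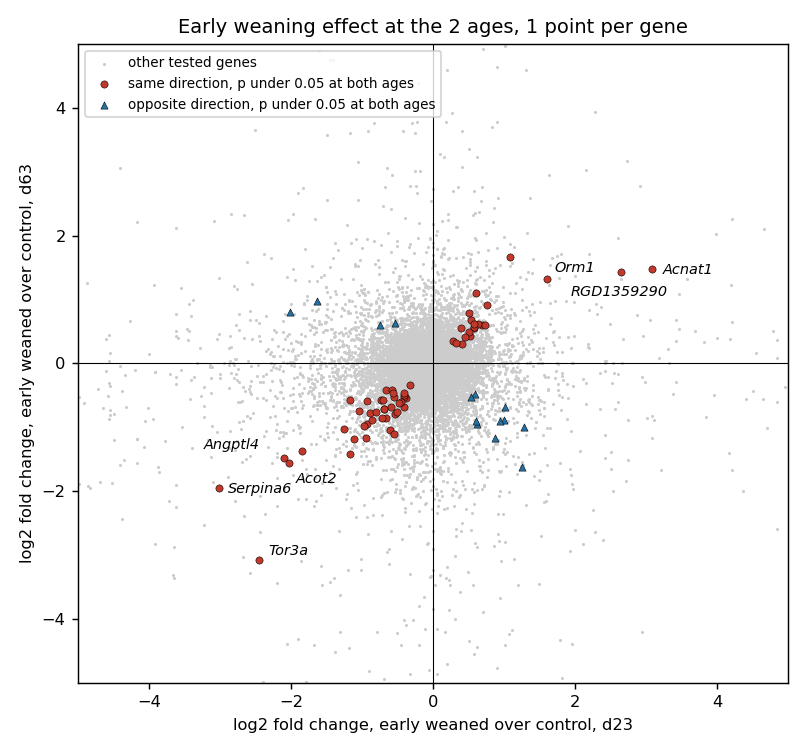
Log2 fold change of early weaned over control at d23 (x axis) against the same at d63 (y axis), 1 point per tested gene. Red circles are the 63 genes at an unadjusted p under 0.05 at both ages in the same direction and blue triangles the 16 of opposite direction. The axes stop at 5 in either direction, which leaves 288 genes outside, 4 of them marked ones. The grey cloud shows no clear slope (Pearson r 0.09), and Angptl4, Acot2, Serpina6 and Tor3a lie lowest, Acnat1, RGD1359290 and Orm1 highest, among the labelled genes.

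Angptl4, a secreted inhibitor of lipoprotein lipase and a target of PPARα, was the gene of smallest p and was lower in early weaned livers. It was at 6.94, 6.58 and 9 FPKM in early weaned livers at d23, against 16.5, 31 and 48 FPKM in controls. At d63 Angptl4 was at 15.6, 14.1 and 24.5 FPKM in early weaned livers, against 41.5, 53.1 and 66.6 FPKM in controls. Every early weaned library was below every control library of its age, and the spread was wider among controls. The gene lies at chr7:18627808-18634079 on the minus strand, as the deposited table gives it. The log2 fold change over both ages was -1.79 (SE 0.26), -2.11 at d23 and -1.48 at d63, with an unadjusted p of 1.68e-05 and an adjusted p of 0.139 by edgeR's quasi-likelihood test. Without both libraries that stand apart it was -1.58.

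Orm1, alpha-1-acid glycoprotein, an acute phase plasma protein made by hepatocytes, was the leading gene of higher level among those seen in all 12 libraries. It was at 2016, 939.86 and 1121 FPKM in early weaned livers at d23, against 418, 566 and 339.87 FPKM in controls. At d63 Orm1 was at 602, 746 and 915 FPKM in early weaned livers, against 404, 329 and 234 FPKM in controls. The groups did not overlap at either age, and early weaned d23 replicate 1 was the highest library. Orm1 lies at chr5:79179417-79182820 on the plus strand. Its log2 fold change was 1.46 (SE 0.22), 1.6 at d23 and 1.32 at d63, with an unadjusted p of 3.12e-05 and an adjusted p of 0.16 by edgeR's quasi-likelihood test. Without both libraries that stand apart it was 1.39.

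Because Angptl4 and Orm1 lead the lower and the higher genes, the 250 bases before the start of each are shown, from RefSeq on build GRCr8, which is not the build of the deposited coordinates. The Angptl4 window is chr7:15258682-15258931, minus strand, and the Orm1 window chr5:81788259-81788508, plus strand, both read 5′ to 3′. Capitals mark TATAAA on the gene's strand and, on both strands, ACANNNTGT (the core of a glucocorticoid receptor site) and TTGCNNAA (the core of a C/EBP site).
Angptl4: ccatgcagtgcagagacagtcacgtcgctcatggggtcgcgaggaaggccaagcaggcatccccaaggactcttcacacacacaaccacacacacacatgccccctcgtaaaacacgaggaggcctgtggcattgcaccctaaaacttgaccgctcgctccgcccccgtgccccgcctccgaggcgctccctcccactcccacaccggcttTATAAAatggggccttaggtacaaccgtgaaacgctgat
Orm1: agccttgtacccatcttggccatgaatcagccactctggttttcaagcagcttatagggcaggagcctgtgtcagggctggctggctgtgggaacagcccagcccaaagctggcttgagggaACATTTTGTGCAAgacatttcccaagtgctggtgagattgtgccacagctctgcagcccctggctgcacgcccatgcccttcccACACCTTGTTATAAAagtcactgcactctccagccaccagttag
TATAAA ends 34 bases before the start in Angptl4 and 30 bases before it in Orm1, and 8.38% of 27457 promoter windows hold it. In Orm1 an ACANNNTGT match at 128 to 120 bases before the start overlaps a TTGCNNAA match at 123 to 116 bases, and a further ACANNNTGT match at 44 to 36 bases adjoins TATAAA. ACANNNTGT occurs in 5.62% and TTGCNNAA in 9.2% of all windows. AGGTCA, the unit that repeats in the PPARα site, was searched on both strands and is not in either window, while 13.7% of all windows and 6 of the 20 matched PPARα list genes hold it. These matches describe letters and are no evidence of binding.

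Other fatty acid genes of the PPARα list were also lower, and at d23 their highest values were in control replicate 3. Acot2, a mitochondrial thioesterase that frees fatty acids from acyl-CoA, was at 4.31, 3.46 and 4.62 FPKM in early weaned livers at d23, against 9.1, 5.46 and 35 FPKM in controls. At d63 Acot2 was at 4.26, 5.5 and 5.31 FPKM in early weaned livers, against 11.3, 14.7 and 21.5 FPKM in controls. The groups did not overlap at either age, and the log2 fold change was -1.80 (SE 0.38), or -1.24 without both libraries that stand apart. Plin2, a coat protein of lipid droplets, was at 4.91, 3.4 and 6.92 FPKM in early weaned livers at d23, against 7.81, 9.12 and 75.7 FPKM in controls. At d63 Plin2 was at 28.9, 29.3 and 22 FPKM in early weaned livers, against 62.7, 88.3 and 89.1 FPKM in controls. Early weaned libraries were below controls at both ages, narrowly so at d23 but for control replicate 3. The log2 fold change of Plin2 was -2.06 (SE 0.53), or -1.10 without both. Acot1, the cytosolic thioesterase and a near copy of Acot2 with which it may share reads, had a log2 fold change of -2.96, or -1.54 without both, at levels under 2 FPKM in every library but control d23 replicate 3, which had 15.6 FPKM.

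Of 24 tested PPARα targets, 23 were lower and 1 higher in early weaned livers over both ages, beside 8463 lower and 6953 higher of all tested genes. The median log2 fold change of the PPARα list was -0.77, beside -0.03 over all tested genes. By sign, 20 of the 24 were lower at both ages and 11 had an unadjusted p under 0.05, while 0 passed the correction. Over all tested genes, 29.9% were lower at both ages and 4.69% were lower at such a p. Without control d23 replicate 3, 21 of 24 were lower, 13 at both ages and 7 at such a p, and the median was -0.38. Without both libraries that stand apart the median was -0.35. Members did not move evenly. Fgf21, a hormone of fasting, was listed at 0 in the 3 early weaned libraries at d23, against 0.29, 0.1 and 6.6 FPKM in controls, and at 3.66, 5.55 and 1.34 FPKM in early weaned livers at d63, against 5.75, 7.66 and 15.7 FPKM in controls. Cpt1a, which admits fatty acids to mitochondria, had a log2 fold change of -0.24 (SE 0.20), and Ppara itself one of 0.04 (SE 0.29). Pdk4, which holds back glucose oxidation, had -0.97 (SE 0.49) with controls at d23 spread over 112, 151 and 17.3 FPKM.

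Mitochondrial beta-oxidation, which the series' title names, had no direction that outlasted 1 library. Of 21 tested genes, 18 were lower and 3 higher, with a median log2 fold change of -0.24. Without control d23 replicate 3, 7 were lower and 14 higher, and the median was 0.10. The list shares 4 genes with the PPARα list, among them Cpt1a and Cpt2. Echs1, enoyl-CoA hydratase, had the smallest p of the list and was at 102, 104 and 91.3 FPKM in early weaned livers at d23, against 86.7, 85.7 and 95.3 FPKM in controls. Its levels overlapped at d23, and its log2 fold change was 0.26 (SE 0.10).

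Of 16 tested collagen and matrix transcripts, 10 were lower at both ages by sign and 1 was higher at both. Over all tested genes, 29.9% were lower at both ages and 24% higher at both. The list's median moved little when the libraries that stand apart were left out. Col4a1, a chain of basement membrane collagen, was at 16, 14.2 and 14.7 FPKM in early weaned livers at d23, against 19.3, 19 and 20.4 FPKM in controls. At d63 Col4a1 was at 5.92, 5.82 and 4.71 FPKM in early weaned livers, against 7.86, 7.59 and 9.66 FPKM in controls. The groups did not overlap at either age, and the log2 fold change was -0.47 (SE 0.09), or -0.48 without both libraries that stand apart. Its partner chain Col4a2 did not overlap at either age and had a log2 fold change of -0.42 (SE 0.11). Col1a1, the main chain of fibrillar collagen, was at 3.21, 3.39 and 3.25 FPKM in early weaned livers at d23, against 4.7, 7.12 and 8.17 FPKM in controls. At d63 Col1a1 was at 1.77, 1.18 and 1.22 FPKM in early weaned livers, against 3.14, 1.58 and 2.64 FPKM in controls. Groups overlapped at d63, where control replicate 2 lay among early weaned libraries, and the log2 fold change was -0.89 (SE 0.19), or -0.92 without both libraries that stand apart.

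Over both ages together, 14 of the 16 were lower and 2 higher, with a median log2 fold change of -0.34. At an unadjusted p under 0.05, 8 of the 16 were lower, beside 4.69% of all tested genes, and 0 were called. The median was -0.35 without control d23 replicate 3 and -0.38 without both libraries that stand apart. The summed level of the 16 genes overlapped at both ages. At d23 it was 707 to 733 FPKM in early weaned livers, against 629.1 to 810.8 FPKM in controls. At d63 it was 320.5 to 404.6 FPKM in early weaned livers, against 385.6 to 500.7 FPKM in controls. Sparc, a matrix glycoprotein, had a log2 fold change of -0.42 (SE 0.12). Fn1 and Lox were the 2 higher members, at 0.24 and 0.43. Outside the list, the basement membrane gene Nid2 (-0.54), the matrix gene Ccdc80 (-0.87) and the intermediate filament gene Vim (-0.76) were among the 63 genes and lower on the log2 scale at both ages. These 3 genes, with Fn1 and Lox, were named after their values were seen. Stellate cell and fibroblast markers, 2 of which are in the matrix list as well, were lower in 9 of 12 genes, with a median of -0.18. The summed level of these 12 markers was 244.2 to 269.1 FPKM in early weaned livers at d23, against 272.7 to 346.8 FPKM in controls. At d63 it was 170.3 to 183 FPKM in early weaned livers, against 153.9 to 232.8 FPKM in controls, so that the sums overlapped at d63. The part of stellate cell number in the collagen result was not tested.

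**Figure D3:**
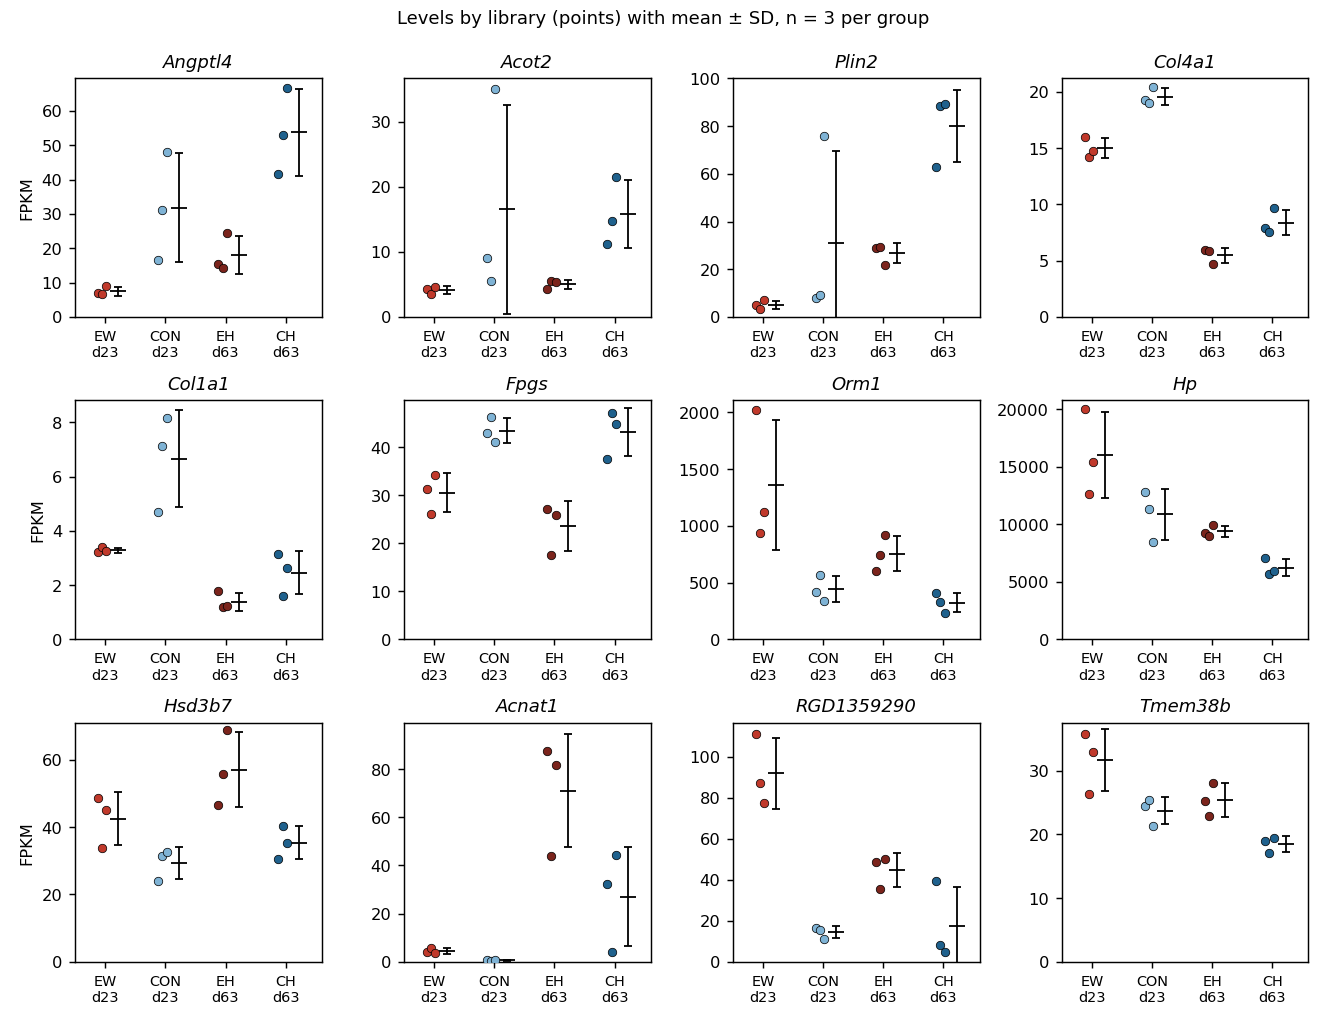
FPKM of 12 genes in each library (points) with the mean ± SD of the 3 libraries of a group, on linear axes from 0, for early weaned d23 (EW), control d23 (CON), early weaned d63 (EH) and control d63 (CH). An SD that reaches below 0 is clipped at the axis. Read row by row, genes lower in early weaned livers come first (Angptl4, Acot2, Plin2, Col4a1, Col1a1, Fpgs). Genes higher in them follow (Orm1, Hp, Hsd3b7, Acnat1, RGD1359290, Tmem38b), so the middle row holds both kinds. Control d23 replicate 3 is far above the others for Acot2 and Plin2.

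Other lower genes were of mixed function. Fpgs, which adds glutamate to folates and so keeps them in the cell, was at 31.4, 26.2 and 34.2 FPKM in early weaned livers at d23, against 42.9, 46.3 and 41.2 FPKM in controls. At d63 Fpgs was at 27.2, 17.6 and 25.9 FPKM in early weaned livers, against 37.5, 47.2 and 44.9 FPKM in controls. The groups did not overlap at either age, and the log2 fold change was -0.66 (SE 0.12), or -0.65 without both libraries that stand apart. Tagln2, an actin-binding protein, averaged 28.1 ± 1.27 FPKM in early weaned livers and 36 ± 4.83 FPKM in controls at d23 (SD, n = 3 each). At d63 Tagln2 averaged 18 ± 1.74 FPKM in early weaned livers and 27.9 ± 0.5 FPKM in controls. It did not overlap at either age and had a log2 fold change of -0.46 (SE 0.09). Snx8, a sorting nexin of endosomes, had -0.55 (SE 0.11), and the zinc finger gene Zfp202 had -0.71 (SE 0.13). RGD1559482, which the deposited table describes as similar to an immunoglobulin superfamily member, had -1.61 (SE 0.28) at levels of up to 3.11 FPKM. The adjusted p of Fpgs, Tagln2 and Zfp202 was 0.359 by edgeR's quasi-likelihood test.

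Serpina6, corticosteroid-binding globulin, the plasma carrier of glucocorticoids, had one of the wider gaps but also wide spread. It was at 5.52, 19.6 and 6.43 FPKM in early weaned livers at d23, against 13.8, 66 and 176 FPKM in controls. At d63 Serpina6 was at 208, 109.53 and 140.47 FPKM in early weaned livers, against 334, 1057 and 481 FPKM in controls. Levels overlapped at d23 and not at d63, the highest value at each age was in the library that stands apart, and the log2 fold change was -2.48 (SE 0.59), or -1.62 without both of those libraries. Tor3a, of the torsin family, was at 1.19, 0.54 and 0.71 FPKM in early weaned livers at d23, against 0.51, 0.6 and 11.9 FPKM in controls. At d63 Tor3a was at 0.87, 0.84 and 0.87 FPKM in early weaned livers, against 4.65, 13.4 and 5.22 FPKM in controls. Again the highest controls were the 2 libraries that stand apart, and at d23 the other 2 controls lay below or within the early weaned range. The log2 fold change of Tor3a was -2.77 (SE 0.71), or -1.14 without both libraries. Serpina6 and Tor3a were chosen for this paragraph after their values were seen.

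Several immune transcripts were among the lower genes at low levels. Gimap4, a GTPase of lymphocytes, was at 0.12, 0.34 and 0.23 FPKM in early weaned livers at d23, against 0.38, 0.68 and 0.5 FPKM in controls, and at d63 at 0.42, 0.91 and 0.57 FPKM in early weaned livers, against 2.11, 1.53 and 1.8 FPKM in controls. It did not overlap at either age and had a log2 fold change of -1.30 (SE 0.29), or -1.37 without both libraries that stand apart. Syk, a kinase of immune receptors (-0.54), the RNA sensor Tlr8 (-0.94), the myeloid receptor Slamf8 (-0.88) and the interferon-inducible Nmi (-0.78) were lower too on the log2 scale. These immune genes were picked from the 63 after their values were seen. Of 11 tested T and NK cell markers, 9 were lower and 2 higher, 4 lower at an unadjusted p under 0.05, with a median of -0.54, or -0.51 without both libraries that stand apart. Over all tested genes, 4.69% were lower at such a p and 29.9% were lower at both ages. By sign 7 of these markers were lower at both ages, with a median of all 11 of -0.15 at d23 and -0.84 at d63. Their summed level was 10.49 to 10.85 FPKM in early weaned livers at d23, against 11.07 to 12.37 FPKM in controls. At d63 it was 12.41 to 13.08 FPKM in early weaned livers, against 17.65 to 29.1 FPKM in controls. The sums did not overlap at either age but Cd4, which rat macrophages carry as well as T cells, was the largest member in every library.

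Cd4 was at 8.62, 8.56 and 8.24 FPKM in early weaned livers at d23, against 9.88, 8.89 and 8.86 FPKM in controls, and at d63 at 6.16, 6.46 and 6.1 FPKM in early weaned livers, against 12.1, 9.91 and 9.68 FPKM in controls. The T cell receptor chains Cd3e, Cd3d and Cd3g reached at most 0.77 FPKM in any of the 12 libraries and were named after their values were seen. Of 7 tested B and plasma cell markers, 7 were lower, with a median of -1.01, or -0.55 without both libraries that stand apart. All 8 tested erythroid markers were lower at both ages by sign, with a median of -0.69, but their sums overlapped, at 3740 to 5108 FPKM in early weaned livers at d23, against 5029 to 7122 FPKM in controls, and at 900 to 3616 FPKM in early weaned livers at d63, against 643.6 to 8503 FPKM in controls. Kupffer cell and macrophage markers were lower in 12 of 13 genes over both ages together, but only 6 were lower at each age by sign. Their median was 0.02 at d23 and -0.45 at d63. At an unadjusted p under 0.05 there were 0, and the marker sums overlapped at both ages. That sum was 587.2 to 708.4 FPKM in early weaned livers at d23, against 507.3 to 740.8 FPKM in controls. At d63 it was 372.9 to 487 FPKM in early weaned livers, against 468.5 to 919.4 FPKM in controls. The part of blood or immune cell content in these differences was not tested.

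Hp, haptoglobin, which binds free haemoglobin in plasma and is an acute phase protein like Orm1, was at 20037, 12632 and 15431 FPKM in early weaned livers at d23, against 12788, 11301 and 8454 FPKM in controls. At d63 Hp was at 9256, 9006 and 9922 FPKM in early weaned livers, against 7066, 5648 and 5930.2 FPKM in controls. Levels overlapped at d23 and not at d63, and the log2 fold change was 0.61 (SE 0.14), or 0.50 without both libraries that stand apart. The acute phase list as a whole was less uniform than Orm1 and Hp. Of 17 tested genes, 12 were higher and 5 lower, 2 at an unadjusted p under 0.05, and the median was 0.10. Lbp, which binds bacterial lipopolysaccharide, had 0.72 at d23 and 0.02 at d63 on the log2 scale. The copper carrier Cp had 0.43 at d23 and 0.01 at d63.

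Hsd3b7, an enzyme early in bile acid synthesis, was at 48.6, 33.7 and 45.1 FPKM in early weaned livers at d23, against 24, 31.4 and 32.6 FPKM in controls. At d63 Hsd3b7 was at 46.7, 55.7 and 68.7 FPKM in early weaned livers, against 30.5, 40.2 and 35.3 FPKM in controls. The groups did not overlap at either age, and the log2 fold change was 0.64 (SE 0.14), or 0.74 without both libraries that stand apart. The bile acid list was split, with 11 of 21 genes, Hsd3b7 among them, higher and 10 lower. The uptake carriers Slco1a1 and Slc10a1 had 0.52 (SE 0.15) and 0.29 (SE 0.13), while Cyp8b1, the 12α-hydroxylase that makes cholic acid, had -2.06 (SE 0.74). With 1 library left out at a time, the value of Cyp8b1 ran from -2.29 to -0.85. Cyp7a1, the rate-limiting enzyme of the pathway, had 0.59 (SE 0.59).

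Acnat1, which in mouse joins fatty acids to taurine in peroxisomes, was at 3.89, 5.84 and 3.66 FPKM in early weaned livers at d23, against 0.53, 0.44 and 0.57 FPKM in controls. At d63 Acnat1 was at 87.3, 44.1 and 81.7 FPKM in early weaned livers, against 32.3, 4.22 and 44.5 FPKM in controls. The groups were apart at d23 and met at d63, where control replicate 2 was lowest. The log2 fold change was 2.22 (SE 0.50), or 1.85 without both libraries that stand apart. RGD1359290, described in the deposited table as a protein with a ribosomal L22 domain and in RefSeq as a pseudogene of Rpl17, was at 111, 87.1 and 77.5 FPKM in early weaned livers at d23, against 16.6, 15.5 and 11.2 FPKM in controls. At d63 RGD1359290 was at 48.5, 35.4 and 50.4 FPKM in early weaned livers, against 39.2, 8.4 and 4.86 FPKM in controls. Control d63 replicate 1 alone lay within the early weaned range. The log2 fold change was 2.03 (SE 0.46) with all libraries, and without control d63 replicate 1 it was 2.73 with an adjusted p of 0.000498 by edgeR's quasi-likelihood test. Over the other settings its adjusted p ran from 0.00242 (DESeq2) to 0.978. Ribosomal protein genes have many near copies, so reads of RGD1359290 may be shared.

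Smaller differences in the same direction were seen in further metabolic and cellular genes. Tmem38b, a cation channel of the endoplasmic reticulum, averaged 31.7 ± 4.86 FPKM in early weaned livers and 23.8 ± 2.11 FPKM in controls at d23 (SD, n = 3 each), and 25.4 ± 2.66 FPKM in early weaned livers and 18.5 ± 1.24 FPKM in controls at d63. Its groups did not overlap at either age, and the log2 fold change was 0.47 (SE 0.10). Sez6, known from neurons, was at 4.4, 5.6 and 6.37 FPKM in early weaned livers at d23, against 3.58, 2.59 and 4.34 FPKM in controls. At d63 Sez6 was at 44.5, 40.4 and 50.04 FPKM in early weaned livers, against 28.9, 15.5 and 22.3 FPKM in controls, with a log2 fold change over both ages of 0.85 (SE 0.19). Cep162, a centrosomal protein, had 0.56 (SE 0.12). Xdh, xanthine oxidoreductase of purine breakdown (0.50), Egln3, a prolyl hydroxylase of the hypoxia pathway (1.37), and Usp39, a splicing factor (0.84), were higher on the log2 scale at both ages and were picked from the 63 after their values were seen. Egln3 had the largest log2 fold change of this paragraph but averaged 0.61 FPKM or less in every group, a level that rests on few fragments.

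Among the more abundant of the 63, Tmem176b, a membrane protein known from immune cells, averaged 319 ± 14.3 FPKM in early weaned livers and 202 ± 58.9 FPKM in controls at d23 (SD, n = 3 each). At d63 Tmem176b averaged 233 ± 35.6 FPKM in early weaned livers and 162 ± 40.9 FPKM in controls, with a log2 fold change over both ages of 0.62 (SE 0.16). Cd302, a C-type lectin receptor, averaged 250.03 ± 13 FPKM in early weaned livers and 172 ± 25.1 FPKM in controls at d23, and 238 ± 17.7 FPKM in early weaned livers and 188 ± 32.1 FPKM in controls at d63. It did not overlap at either age and had 0.47 (SE 0.11). Dcxr, a reductase of sugars and carbonyls (0.32), Ak3, a nucleotide kinase of the mitochondrial matrix (0.31), Wwp1, a ubiquitin ligase (0.43), and Picalm, an adaptor of clathrin-coated pits (0.57), were higher at both ages on the log2 scale by less than 1.5-fold. Slc7a8, a carrier of neutral amino acids, was the reverse, at 0.53, 0.64 and 0.78 FPKM in early weaned livers at d23, against 0.82, 1.02 and 1.1 FPKM in controls. At d63 Slc7a8 was at 0.43, 0.51 and 0.39 FPKM in early weaned livers, against 1.22, 0.9 and 0.81 FPKM in controls. These genes were chosen from the 63 after their values were seen.

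Some large fold changes rested on few libraries or few reads. Asb15 was at 1.73, 2.03 and 2.15 FPKM in early weaned livers at d23 and was listed at 0 in the 3 controls, at least 41.3-fold higher when each control is set to a floor of 3 fragments. At d63 its highest count was 4 units, about 1 fragment, in early weaned livers, and 0 in controls, so the value of Asb15 rests on d23. Inmt, a methyltransferase of tryptamine, was at 5.56, 21.9 and 60.4 FPKM in early weaned livers at d23, against 1.64, 0.74 and 0.93 FPKM in controls. At d63 Inmt was at 37, 18.6 and 32.8 FPKM in early weaned livers, against 5.75, 0.16 and 16.2 FPKM in controls. Its groups were apart at both ages and its log2 fold change was 3.34 (SE 0.93). AABR07035374 and AABR07035348, a processed transcript and a pseudogene on chromosome 12, had 1.30 (SE 0.81) and 1.24 (SE 0.80), with control d63 replicate 2 at 1.64 and 0.09 FPKM. Without that library AABR07035374 had 1.02. Akr1b7, an aldo-keto reductase, had -5.79 (SE 2.03) with 260.6 FPKM in control d63 replicate 2, and -3.54 without both libraries that stand apart. AABR07064716, a miRNA-length entry at 0.21 FPKM or less in every d23 library, had -1.85 (SE 0.93).

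Pathways of energy and sterol metabolism differed by small amounts. All 28 tested nuclear genes of the respiratory chain had a positive log2 fold change, with a median of 0.16, 0.04 at d23 and 0.26 at d63. Of these, 18 were higher at both ages, beside 24% of all tested genes. At an unadjusted p under 0.05, 1 of the 28 was higher, beside 2.47% of all tested genes. Without control d23 replicate 3, 27 were higher at both ages, 14 had such a p, and the median was 0.21. Sdha, a subunit of succinate dehydrogenase, was at 114, 140 and 124 FPKM in early weaned livers at d23, against 113, 101 and 124 FPKM in controls, where the groups overlapped. At d63 Sdha was at 121, 141 and 135 FPKM in early weaned livers, against 108, 110.13 and 114 FPKM in controls, with a log2 fold change over both ages of 0.24 (SE 0.10). Of 25 cholesterol synthesis genes, 21 were higher and 4 lower, 0 at an unadjusted p under 0.05, and the median was 0.31. That lean was mostly at d23, where the median was 0.57, beside 0.08 at d63, and 14 of the 25 were higher at both ages. The series' title names this pathway too. Without early weaned d63 replicate 3, 15 were higher and 10 lower with a median of 0.07. With the 3 libraries that lack Y-linked transcripts left out, 14 were higher and 11 lower and the median was 0.06.

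Fatty acid and triglyceride synthesis had no common direction, with 10 of 22 genes higher and 12 lower. Srebf1, the factor that drives this synthesis after feeding, was at 7.65, 11.7 and 8.2 FPKM in early weaned livers at d23, against 5.67, 8.85 and 6.19 FPKM in controls. At d63 Srebf1 was at 47.2, 42.6 and 25.3 FPKM in early weaned livers, against 20.6, 25.5 and 8.45 FPKM in controls. The groups overlapped at both ages in FPKM, and the log2 fold change was 0.78 (SE 0.28). Acaca, acetyl-CoA carboxylase, which commits acetyl-CoA to fatty acids, had 0.71 (SE 0.24) and overlapped at both ages as well.

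Amino acid and clock genes leaned higher as well. Of 22 tested genes of the urea cycle and amino acid catabolism, 19 were higher, 15 at both ages, with a median of 0.24, or 0.24 without both libraries that stand apart. Gpt, alanine aminotransferase, had the smallest p of that list, at 0.46 (SE 0.19). Of 18 branched-chain amino acid genes, 16 were higher with a median of 0.15. Pcca, a subunit of propionyl-CoA carboxylase, was at 36.2, 35.7 and 34 FPKM in early weaned livers at d23, against 32.9, 29.9 and 25.5 FPKM in controls. At d63 Pcca was at 20.1, 23.6 and 20.9 FPKM in early weaned livers, against 15.7, 11.6 and 13.7 FPKM in controls, and its log2 fold change was 0.49 (SE 0.13). Of 18 clock genes, 15 were higher and 3 lower with a median of 0.38, 0.18 at d23 and 0.53 at d63. Per2, a repressor of the clock, had 0.11 at d23 and 1.68 at d63. The hour of sampling is not given in the sources used here.

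Lists that track the libraries standing apart gave the widest medians. Of 18 tested cell cycle genes, 16 were lower with a median of -1.86, or -0.53 without control d23 replicate 3, where Mki67 was 3.96 FPKM, against 0.09 FPKM or less in the other 5 libraries of that age. Of 9 tested female-biased genes, 8 were lower with a median of -1.90, or -0.57 without control d63 replicate 2. Of 8 male-biased genes, 7 were higher with a median of 0.62, or 0.42 without that library. Hepatocyte markers had a median of 0.03, and their sum was 55600 to 65700 FPKM in early weaned livers at d23, against 74590 to 120700 FPKM in controls. At d63 the sum was 83990 to 92120 FPKM in early weaned livers, against 84480 to 85750 FPKM in controls.

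**Figure D4:**
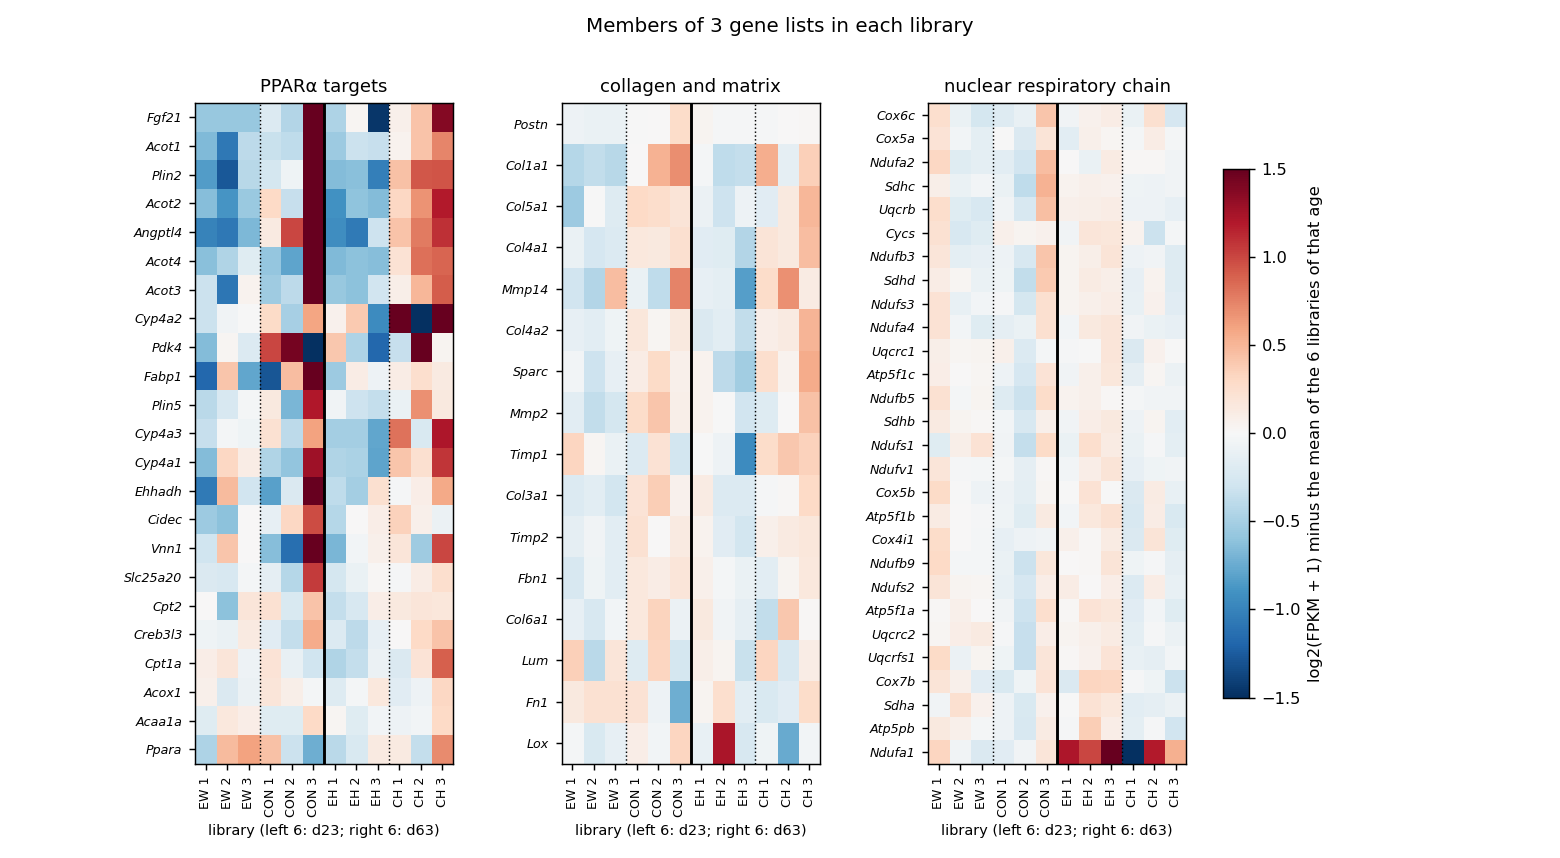
Log2(FPKM + 1) of tested members of 3 lists (23 of the 24 PPARα targets and all of the other lists) in each library, as the difference from the mean of the 6 libraries of the same age, with early weaned libraries (EW, EH) left of controls (CON, CH) at each age. Red is above and blue below that mean, with colours clipped at 1.5, and genes run from the most negative log2 fold change at the top. In the PPARα list control d23 replicate 3 is dark red over most genes, while collagen genes differ by less and their summed levels overlap at both ages.

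**Figure D5:**
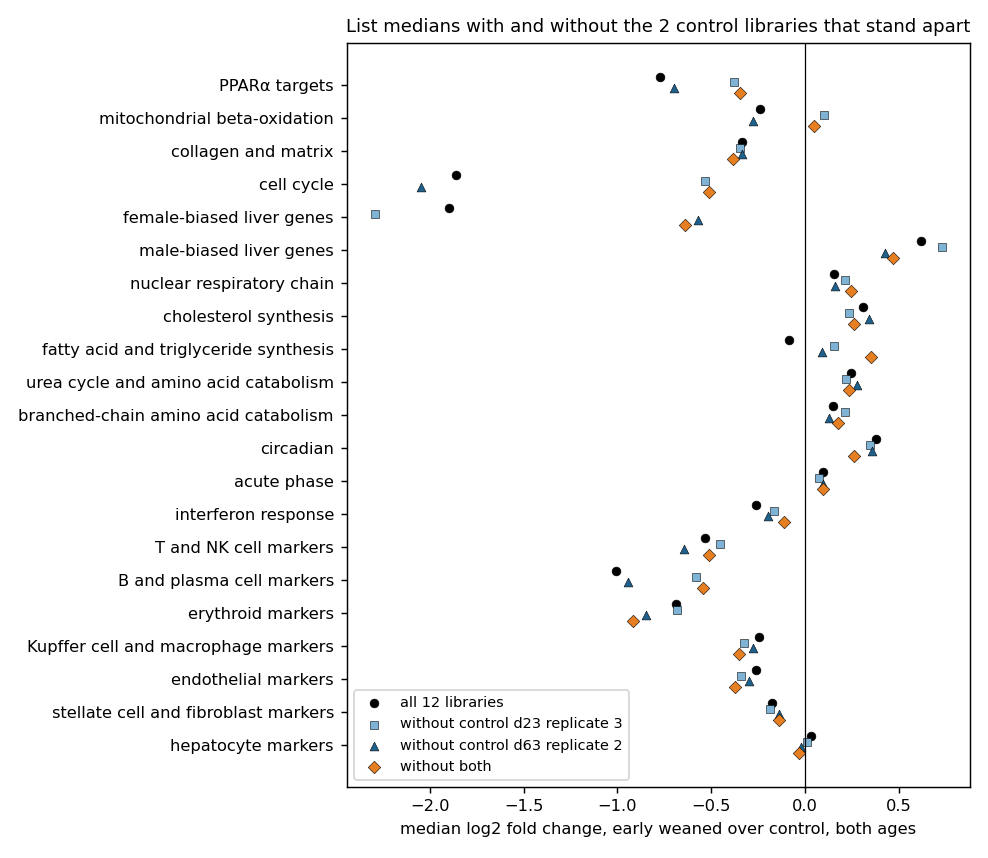
Median log2 fold change of early weaned over control livers, both ages together, for 21 gene lists with all 12 libraries, without control d23 replicate 3, without control d63 replicate 2 and without both. Medians of the cell cycle, PPARα, female-biased and beta-oxidation lists shift with 1 library, beta-oxidation and fatty acid synthesis across 0, and that of collagen and matrix stays between -0.38 and -0.34.

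The test of whether the effect of early weaning differed between the ages called 1 of 15416 genes (0.00649%), beside 727 (4.72%) at an unadjusted p under 0.05. The gene called was AABR07070810, which the deposited table describes as a ribosomal protein L12 pseudogene. It was at 30.3, 31.6 and 26.9 FPKM in early weaned livers at d23, against 123, 153 and 114 FPKM in controls. At d63 AABR07070810 was at 80.2, 55.1 and 65.9 FPKM in early weaned livers, against 74.5, 55 and 67.4 FPKM in controls, where the groups overlapped. Its difference in log2 fold change, d63 minus d23, was 2.27 with an adjusted p of 0.0319 by edgeR's quasi-likelihood test. With 1 library left out its adjusted p ran from 0.0162 to 0.125, and the call was lost without any 1 of 8 libraries, namely control d23 replicates 1 and 2, the 3 early weaned d23 libraries and the 3 control d63 libraries. It was lost as well with the Y-linked transcripts as a term (adjusted p = 0.373) and without the 3 libraries that lack them (adjusted p = 0.373). At d23 alone AABR07070810 fell and the checkpoint ligand Cd274 rose, the 2 genes called at that age (0.013%), with adjusted p of 0.00227 and 0.0406 by the same test. Cd274 was at 0.05, 0.06 and 0.06 FPKM in early weaned livers at d23 and listed at 0 in controls, a level too low to place. At d63 alone 0 genes (0%) were called. Reads of AABR07070810 may be shared with other L12 copies. Of the 16 genes at an unadjusted p under 0.05 at both ages with opposite directions, 12 were higher at d23 and lower at d63. They included Nos3, the endothelial nitric oxide synthase (0.61 at d23 and -0.95 at d63), and Thbd, the thrombin receptor of endothelium (0.94 and -0.89), named after their values were seen. By p, the next genes of the interaction test were Abcg2, an efflux pump, at 1.83 at d23 and -0.27 at d63, and Zbtb16, a transcription factor induced by glucocorticoids, at 0.61 at d23 and -4.45 at d63, neither of which passed.

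The d211 Sprague Dawley libraries are independent of the choice of these genes, though strain and age differ as well. Of the 22 genes higher at both Wistar ages, 21 were tested at d211, where 7 were higher and 14 lower in early weaned livers with a median log2 fold change of -0.29. Of the 41 genes lower at both Wistar ages, 40 were tested, and 21 were higher and 19 lower with a median of 0.07. Of all 14635 genes tested in both tables, 7605 were higher and 7029 lower at d211. At d211, 108 of 15019 genes were called (0.719%), and 0 of the 63 were among them. Of the 61 tested, 16 had an unadjusted p under 0.05 at d211, beside 17.3% of all genes tested there, 5 of them in the direction of the Wistar ages and 11 against it. Angptl4 had 0.20 at d211, where it stood at 64.6, 60.6 and 30.4 FPKM in early weaned livers, against 59.5, 38.3 and 20.8 FPKM in controls. Orm1 had 0.19 at d211, and Hp had 0.13. Acot2 (-0.81), Serpina6 (-0.91), Tor3a (-1.36), Fpgs (-0.53) and Cep162 (0.64) kept their direction on the log2 scale at an unadjusted p under 0.05. Hsd3b7 (-0.92), Tagln2 (1.18), Gimap4 (1.40) and Tmem38b (-0.44) had the opposite sign at such a p. The PPARα list had a median of -0.75 at d211 and the collagen and matrix list one of -0.19, while the clock list had -0.99. The difference between the Wistar ages and d211 was not tested, since the tables were normalized separately.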

How the data were processed

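Liver RNA was sequenced from 12 Wistar libraries (early weaned and control at d23 and d63, 3 each) and 9 Sprague Dawley libraries at d211. The authors deposited FPKM values and estimated counts for 32623 Ensembl rat genes, per the file headers, in 1 table for each strain; the counter is not given in the sources used here. Low counts pile up at steps of about 4 units (4570 values of 4 and 2914 of 8, against 1309 of 5), so 3 fragments were taken as a floor of 12 units. GRCm38 and mm10, both of mouse, are the builds listed per the submitters' processing notes, while the tables hold rat gene IDs; coordinates are printed as deposited, their rat build is not given in the sources used here, and promoter sequences come from RefSeq on GRCr8. The labels do not say that the kit marks strand, so overlapping genes on opposite strands cannot be told apart.

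Counts, whole as deposited, were tested with edgeR 4.0.16 (R 4.3.3), using TMM scaling, filterByExpr with a minimum count of 10 and quasi-likelihood tests, with day and weaning as terms. Single ages and the interaction came from a fit of 4 group means, d211 from its own table of 9 libraries, and p-values were Benjamini-Hochberg adjusted over all tested genes, with a threshold of 0.05. Log2 fold changes are early weaned over control. A group was said not to overlap on TMM-scaled CPM in counts over genes, and on FPKM where libraries are listed. Alternatives were DESeq2 1.42.0, limma 3.58.1 on log2(FPKM + 1), another filter, left-out libraries and a replicate block. Leaving out both libraries that stand apart, leaving out those without Y-linked transcripts, a term for those transcripts and division of counts by 4 were chosen after seeing the data.

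Tested on simulated data for the main effect over 15024 genes, the fit recovered 67 of 100 genes changed 2-fold and 98 of 100 changed 4-fold, and called 12 unchanged genes. The changed genes were drawn only from those at or above the median mean count, and no simulated library was made to stand apart. These rates therefore do not give the recovery of less abundant genes or with such libraries. Replicate numbers did not pair the libraries (correlations of deviations of -0.19 to 0.193), and no 2 libraries of a group shared more than 3.28% of their counts. The 38 gene lists held 617 symbols, of which 580 were in the table and 557 were tested. Members and lists were chosen with earlier results of these data known. Named genes were those of smallest p over both ages with a consistent sign and at least 1 FPKM (up to 8 in each direction), the 4 of smallest interaction p, up to 4 of each list, a fixed panel, and up to 5 in each direction of largest fold among genes without overlap at both ages. Others are marked as chosen after their values were seen.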

Additional observations from a re-analysis of the deposited data

Results flagged for a closer look

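AABR07070810, described as a ribosomal protein L12 pseudogene, was singled out because its response differed between the ages by a direct test. The difference in log2 fold change, d63 minus d23, was 2.27 by edgeR's quasi-likelihood test, with an adjusted p of 0.0319. The call was lost when any 1 of 8 of the 12 libraries was left out (adjusted p over all 12 such fits 0.0162 to 0.125), in the replicate block (adjusted p = 0.0527) and in both settings on Y-linked transcripts (adjusted p = 0.373 in each), while the difference ran from 2.08 to 2.39 over all settings. It was at 30.3, 31.6 and 26.9 FPKM in early weaned livers at d23, against 123, 153 and 114 FPKM in controls, and overlapped at d63. No other result was singled out, and groups of 3 libraries were not tested for outliers.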

How the results depend on the processing

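Angptl4, Orm1, Col4a1, Fpgs and Hsd3b7, picked by p from these same libraries, kept their direction over both ages under all alternatives run. Counts of calls shifted as follows, and the causes were not tested. The count of genes called over both ages was 0 in the fit used and 60 with DESeq2, and 1 with counts divided by 4 (Asb15). DESeq2 called 113 genes at d23, 94 at d63 and 46 for the interaction, and gave 95 genes of the same and 28 of opposite direction. On log2(FPKM + 1), limma called 9 at d23, 2 for the interaction and 182 at d211, with 36 of opposite direction. With a pseudocount of 0.1 it called 4, 2 and 2 at d23, d63 and interaction, with 39 opposite. With no filter, 5 were called at d23. Fitted with a replicate block, although the numbers showed no clear pairing, 1 was called at d23, 1 at d63, 0 for the interaction and 49 at d211. In that fit 33 of the 63 genes kept an unadjusted p under 0.05 at both ages. Without both libraries that stand apart, 594 genes were higher at an unadjusted p under 0.05, 2 were called at d63 and 2 for the interaction, with 104 of the same and 52 of opposite direction. Without the 3 libraries lacking Y-linked transcripts, 1 was called at d23, 1 at d63 and 2 for the interaction. With a Y-linked term, 0 were called at d23 and 1 at d63, with 37 of the same and 43 of opposite direction.

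Leaving out 1 library at a time gave 0 to 1 calls over both ages, 288 to 658 genes higher at an unadjusted p under 0.05, 1 to 6 calls at d23, 0 to 3 at d63 and 0 to 4 for the interaction. It gave 40 to 113 genes of the same and 12 to 57 of opposite direction, and 2 to 534 calls at d211. At d211 the count was 2 without early weaned replicate 1, 534 without replicate 2 and 24 without replicate 3, and 7 and 3 without control replicates 2 and 3. Over 175 results for named genes under 24 settings, 78 values changed sign and 21 passed a threshold they had missed. The other 4068 kept their sign and stayed without a call. With 0 genes called in the fit used, this asks little more than a kept sign, and sizes could shift. Plin2, for one, ran from -2.22 to -1.10 over the settings. Depth does not limit genes of many FPKM, while those under 1 FPKM rest on few fragments.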
